A study of Homo sapiens with 2 samples.

Results

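Stitched clusters of distal MYBL2 peaks were defined as groups of at least 8 peaks lying away from gene starts, and there were 587 of them. The members were selected on measured values, the positions of the deposited peaks. A peak counted as distal when its summit was more than 2500 bp from every transcription start site (TSS) of a GENCODE protein-coding or lncRNA transcript. Distal peaks on 1 chromosome were joined into a run where the gap between neighbours was at most 5000 bp, and runs of 8 or more peaks were kept. Of 66954 deposited peaks, 36992 were distal. They formed 17461 runs, of which 11575 were single peaks. The 587 clusters held 10060 distal peaks (27.2% of the distal peaks), a share that follows from the rule and is not a result about the members.

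The peaks came from chromatin immunoprecipitation and sequencing (ChIP-seq) of A673, an Ewing sarcoma cell line that carries the EWSR1-FLI1 fusion gene. One library was made with an antibody labelled anti-MYBL2, described in the study's methods as raised against the phosphorylated protein, and 1 library from input DNA of the same line. No treatment or genetic change beyond the line itself was labelled for either library. With 1 library of each kind there was no replicate, so values below are counts, shares and medians with no test, and intervals cover counting error only.

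MYBL2, or B-Myb, is a transcription factor of dividing cells that acts with the MuvB complex and FOXM1 at promoters of G2/M genes, often through a CHR element. MYB proteins also recognise a short DNA motif of their own. EWSR1-FLI1 binds single ETS motifs and runs of repeated GGAA, the latter as distal enhancers. Dense groups of distal peaks are commonly read as large enhancers, but peaks spread along a gene body give the same pattern when stitched.

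The sequences below show what lay under clustered summits. Each is the 101 bases centred on a summit, from the plus strand of GRCh37 (the same coordinates as hg19). Capitals mark a motif match on either strand. The 8-base ETS core CCGGAAGT was within 50 bp of 3 of 10060 clustered summits, and 2 of these are shown first. They are in a cluster inside the body of CELF1 (chr11:47531008-47531108) and in one in the lncRNA gene MIR23AHG (chr19:13949937-13950037).
CELF1 summit: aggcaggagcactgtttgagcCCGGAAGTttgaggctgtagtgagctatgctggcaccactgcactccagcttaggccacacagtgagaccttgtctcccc
MIR23AHG summit: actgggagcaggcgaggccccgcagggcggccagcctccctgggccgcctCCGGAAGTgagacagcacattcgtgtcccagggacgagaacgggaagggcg

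Fold enrichment is the fragment pileup at the summit over the local input background, each with 1 added. It was 3.07 at the CELF1 summit and 11.2 at the MIR23AHG summit. The MIR23AHG window was also the more GC-rich, at 71.3% against 57.4%. The next sequence (chr2:224560408-224560508) is the 1 clustered summit with 4 consecutive GGAA units, here on the minus strand, inside AP1S3.
AP1S3 repeat summit: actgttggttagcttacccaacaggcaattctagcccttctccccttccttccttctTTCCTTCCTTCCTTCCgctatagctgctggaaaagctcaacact

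The last set is the strongest peak of the 4 clusters with the most peaks, in MYO10 (chr5:16889822-16889922), DAPK1 (chr9:90220730-90220830), HMCN1 (chr1:185807187-185807287) and GALNT7 (chr4:174095477-174095577), and the 2 clustered peaks of largest fold enrichment, in AP1S3 (chr2:224588613-224588713) and between VRK1 and BCL11B (chr14:97684400-97684500). All 9 motifs described further on were searched in these 6 windows.
MYO10 strongest summit: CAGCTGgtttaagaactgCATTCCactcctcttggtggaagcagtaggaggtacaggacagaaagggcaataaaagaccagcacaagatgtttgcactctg
DAPK1 strongest summit: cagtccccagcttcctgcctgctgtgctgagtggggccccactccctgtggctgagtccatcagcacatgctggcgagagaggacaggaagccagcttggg
HMCN1 strongest summit: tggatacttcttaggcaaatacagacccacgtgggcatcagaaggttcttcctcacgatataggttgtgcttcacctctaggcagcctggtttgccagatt
GALNT7 strongest summit: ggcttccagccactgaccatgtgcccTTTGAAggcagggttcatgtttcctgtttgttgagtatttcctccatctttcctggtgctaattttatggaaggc
AP1S3 strongest summit: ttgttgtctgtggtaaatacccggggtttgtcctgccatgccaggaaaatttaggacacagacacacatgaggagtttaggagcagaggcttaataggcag
VRK1-BCL11B interval summit: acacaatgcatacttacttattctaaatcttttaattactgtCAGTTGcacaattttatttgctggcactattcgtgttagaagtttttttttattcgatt

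The MYO10 window held an E-box and a TEAD site, the GALNT7 window a CHR element and the interval between VRK1 and BCL11B a MYB site. The only E-box form searched was CAGCTG, so other forms, such as the CACGTG in the HMCN1 window, were not counted. The DAPK1, HMCN1 and AP1S3 windows held none of the motifs searched.

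The clusters lay mainly inside genes. A cluster was placed in a gene body when the gene covered at least 50% of its bases. By this measure 523 of 587 clusters (89.1%, exact 95% binomial interval 86.3 to 91.5%) were in the body of a protein-coding gene. A further 25 were in lncRNA genes only, 30 touched the edge of a gene and 9 touched no gene. Of all clusters, 417 (71.0%) were wholly within 1 protein-coding gene. For comparison, 63.5% of single distal peaks were in protein-coding gene bodies, 67.8% of runs of 2 or 3 peaks and 78.6% of runs of 4 to 7 peaks. The share touching no gene ran the other way, from 26.2% of single peaks to 1.53% of clusters (0.703 to 2.89%). Protein-coding bodies made up 42.3% of the sequenced genome beyond the TSS zones and held 74.2% of all distal summits.

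**Figure D1:**
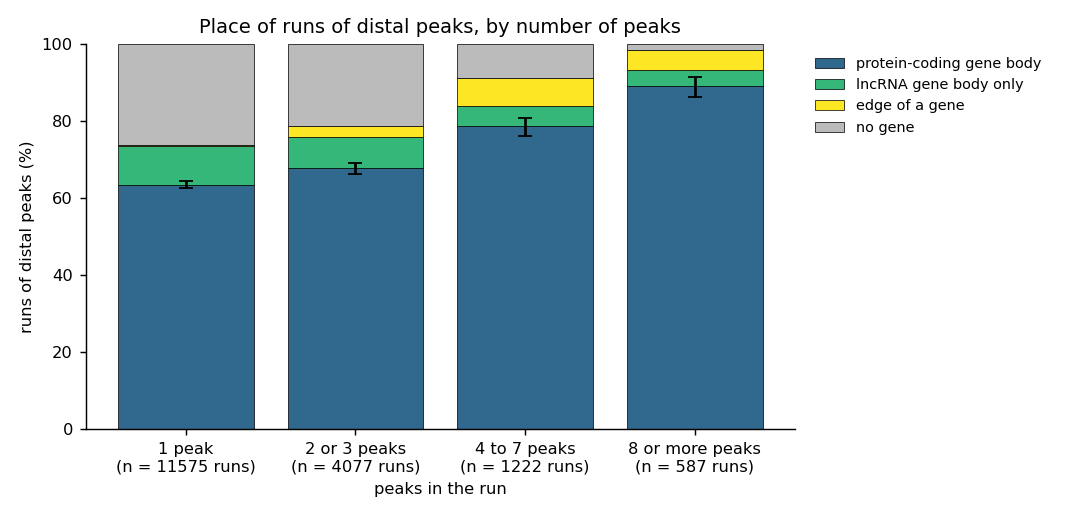
Share of runs of distal peaks (y axis, percent) in a protein-coding gene body, in a lncRNA gene body only, at the edge of a gene or in no gene, by the number of peaks in the run (x axis); bars on the lowest segment are exact 95% binomial intervals. The protein-coding share goes from 63.5% of single peaks to 89.1% of clusters, and the share in no gene from 26.2% to 1.53%.

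Within the genes the summits lay for the most part outside the exons counted, those of the canonical transcript of each protein-coding gene. Exons of other transcripts were not counted. Of 9014 clustered summits in a protein-coding gene body, 455 (5.05%) lay in a counted exon. The share was 6.39% for single distal summits in gene bodies, 9.84% in runs of 2 or 3 peaks and 12.2% in runs of 4 to 7. The median distance of a clustered summit from the nearest TSS was 12570 bp, and that of single distal summits 12790 bp.

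In size the clusters ranged from 8 to 145 peaks, with a median of 12. The median length was 17020 bp, from 4344 bp to 152251 bp. There were 138 clusters with 20 or more peaks, 17 with 50 or more, and 42 that spanned at least 50 kb. Together they covered 13.1 Mb, of which the peaks themselves made up 4.74 Mb. Peaks covered a median of 32.0% of a cluster (8.86 to 92.4%), at a median of 7.83 peaks per 10 kb (3.04 to 18.4), and neighbouring summits stood a median of 1072 bp apart. In 271 clusters 1 end, and in 192 both ends, lay within 5000 bp of a peak near a TSS that the rule had left out. At the threshold, the 102 runs of 8 peaks had a median length of 11190 bp and the 152 runs of 7 peaks, just outside, 9986 bp. Both had a median fold enrichment of 3.53, and 81.4% of the former and 86.2% of the latter lay in protein-coding gene bodies.

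**Figure D2:**
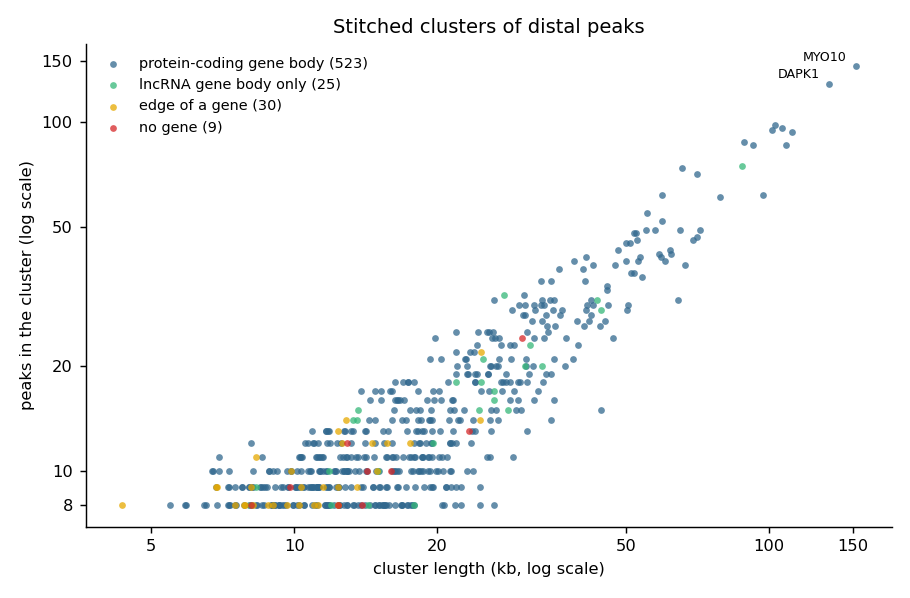
Length of each of the 587 clusters (x axis, kb, log scale) against its number of peaks (y axis, log scale), coloured by place; each point is 1 cluster. Length and number of peaks go together, as the rule makes them, and the 2 clusters with the most peaks, in MYO10 and DAPK1, stand at the upper right with 145 and 129 peaks.

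The cluster with the most peaks filled much of MYO10, which encodes an unconventional myosin of filopodia. It held 145 peaks over 152251 bp (chr5:16761787-16914037). Their fold enrichment ran from 2.39 through a median of 4.02 to 10.3, so that a long row of peaks of like height surrounded few tall ones. The strongest peak had a pileup of 45 fragments (Poisson interval 32.8 to 60.2) over a background of 3.45, and the second a fold enrichment of 7.43. With 4 more clusters, MYO10 held 198 clustered peaks, and clusters spanned 80.9% of the gene. In all, 227 deposited peaks had their summit in the gene. The 50 kb before its start held 5 peaks and the 50 kb past its end 1.

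DAPK1, a calcium and calmodulin regulated kinase of cell death, held the next cluster, with 129 peaks over 133744 bp (chr9:90118369-90252112). Fold enrichment there ran from 1.97 to 8.67 with a median of 3.76. HMCN1, which encodes the extracellular matrix protein hemicentin-1, held 98 peaks in 1 cluster (chr1:185753688-185856451) and 236 in its 5 clusters, the most of any gene. Its largest cluster had a median fold enrichment of 3.55 and no peak above 5.68. BCL11B, a zinc finger transcription factor, held 1 cluster of 86 peaks (chr14:99633800-99726098), with fold enrichment from 2.43 to 5.84. This cluster covered 90475 bp of the 102911 bp gene and ran 1824 bp past its 3′ end. The upstream 50 kb of BCL11B held 0 peaks and the downstream 50 kb held 3.

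**Figure D3:**
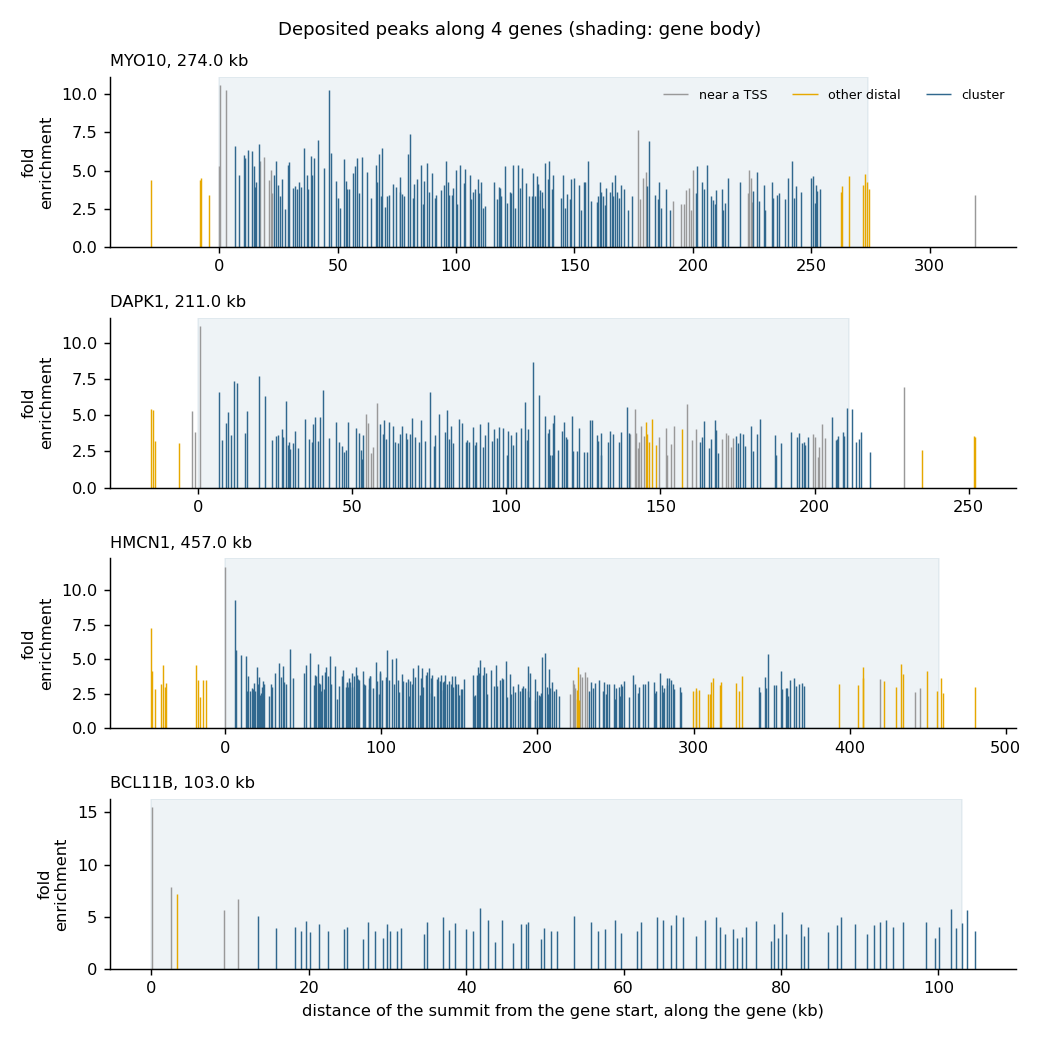
Fold enrichment of every deposited peak (y axis) against the distance of its summit from the gene start along the direction of transcription (x axis, kb) for MYO10, DAPK1, HMCN1 and BCL11B, with 50 kb either side and the gene body shaded. Blue lines are clustered peaks, which run through much of each gene body. In HMCN1, 457 kb long, the last of them is at 371 kb. The regions outside hold from 0 to 13 peaks on the upstream side and from 1 to 9 on the downstream side.

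The other clusters among the 10 with the most peaks were in genes of varied function. GALNT7, a transferase that starts or extends O-glycans, held 96 peaks, and PREX1, a guanine nucleotide exchange factor for Rac, 95. RCOR1, the CoREST corepressor, held 94, and SYT1, the calcium sensor of synaptic vesicle release, 88. MAN2A1, a Golgi mannosidase, held 86 in its larger cluster. The only one of the 10 outside protein-coding genes was in MIR181A1HG, the lncRNA host of a miR-181 locus, with 75 peaks over 87796 bp (chr1:198804797-198892592). In these 6 clusters the median fold enrichment ranged from 3.22 in SYT1 to 3.81 in RCOR1, and the largest value of any peak from 5.11 in SYT1 to 8.21 in MAN2A1.

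Clusters with the tallest peaks were other clusters. AP1S3, a subunit of a clathrin adaptor, held the largest fold enrichment of any clustered peak, 35.5, with a pileup of 233 fragments (204 to 265) over a background of 5.60. The second peak of that cluster of 42 reached 14.8 and the median was 4.53. In the interval between VRK1 and BCL11B, a cluster of 14 peaks (chr14:97677352-97701959) at the edge of the lncRNA gene ENSG00000285584 reached 16.0. It lay 268439 bp from the nearest coding TSS on the VRK1 side and 2035863 bp from that on the BCL11B side. A cluster of 43 peaks in WDFY2, an endosomal protein, reached 12.6, and one of 17 in BAG3, a co-chaperone of HSP70, 12.2.

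The densest clusters were short. That at CFAP276 packed 8 peaks into 4344 bp (18.4 per 10 kb). The others of the 5 densest were in PRRC2B, at FXR1 and DNAJC19, in MACROH2A2, a histone variant, and at FKBP1A, with 14.8 to 15.8 peaks per 10 kb. No peak in these 5 clusters exceeded a fold enrichment of 6.07.

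In all, 379 of 20098 protein-coding genes held a cluster in their body (1.89% of the genes), and 93 of them held at least 2. After HMCN1, the most clustered peaks were in CDK14, a cyclin-dependent kinase, with 207 in 6 clusters. MYO10 followed with 198, then RERE, a nuclear receptor co-regulator, with 195 in 8 clusters. DAPK1 had 156 in 3, SYT1 137 in 6, PREX1 135 in 3 and the cadherin gene CDH11 128 in 4. MAN2A1 had 127 in 2, DAB1, an adaptor of reelin signalling, 122 in 4, the secreted protein gene NELL2 118 in 5, and TBL1XR1, part of the NCoR corepressor, 105 in 4. Of 144 pairs of neighbouring clusters in the same gene, 97 had a TSS zone between them, and 61 would have been joined had peaks near a TSS been kept.

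The 25 clusters placed in lncRNA genes only were held by 13 of these genes. ENSG00000227579 on chromosome 1 had 8 clusters with 123 peaks. PVT1, the neighbour of MYC, had 4 with 82 peaks. LINC-PINT had 3 with 41, MIRLET7BHG, the host of let-7b, 1 with 32, and DLEU2, the host of miR-15a and miR-16-1, 1 with 31. NEAT1, the scaffold RNA of paraspeckles, had 1 with 10. MIR23AHG, the host of miR-23a, had 1 with 8.

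The host genes were longer than other genes. Their median length was 80990 bp, against 27260 bp for all protein-coding genes. Of genes up to 25 kb, 0.427% (41 of 9595) held a cluster, against 2.50% from 25 to 50 kb, 3.05% from 50 to 100 kb, 4.12% from 100 to 200 kb, 3.85% from 200 to 400 kb and 4.49% above 400 kb. Longer genes offer more room for 8 peaks beyond the TSS zones, and the rule does not correct for this. Of 20 very long genes chosen by name, FHIT, WWOX, LRP1B and CSMD1 among them, 0 held a cluster and 12 had a promoter peak. With a host share of 4.49% above 400 kb, a count of 0 among 20 is near the background.

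Nearly all host genes also had a peak near a TSS of their own, called a promoter peak here. A deposited peak overlapped the 1000 bp either side of a TSS in 377 of 379 hosts (99.5%, 98.1 to 99.9%), against 11941 of all 20098 protein-coding genes (59.4%). The exceptions were ABI3BP and SH3D19. Among genes with no cluster, the share with a promoter peak was 50.7 to 68.5% across the 6 length classes. In hosts the strongest promoter peak reached a median fold enrichment of 11.7, against 8.67 over all genes with one. In 339 of 379 hosts it exceeded every clustered peak of the gene. Every annotated TSS of a gene counted, including TSSs inside its body. A host with many peaks in its body could meet this measure through one of them, so the share partly follows from the rule. Promoter peaks come from the same ChIP and input libraries as the clusters, so they are not an independent measurement.

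Named gene groups differed in how many members were hosts, with 1.89% of all protein-coding genes as the background. The groups were chosen with earlier results of these data known, so their shares are a description and not a test. Of 35 genes listed by name as activated by EWSR1-FLI1, 9 (25.7%) held a cluster, with 331 clustered peaks in all. BCL11B had 86 peaks. IL1RAP, the co-receptor of the interleukin-1 receptor, had 66 in 3 clusters, and JAK1, a cytokine receptor kinase, 61 in 1. MEIS1, a homeobox gene, had 40 in 2 clusters, and EZH2, the histone methyltransferase of Polycomb complex PRC2, 29 in 2. LIPI had 15 peaks, TCF4 12, and PRKCB and the kinase gene VRK1 11 each. All 9 had a promoter peak, with fold enrichment from 5.28 in PRKCB to 24.3 in VRK1. The median length of the 35 genes was 36200 bp, and the host share of all genes from 25 to 50 kb was 2.50%. Of the 35, 30 had a promoter peak, and 26 were not hosts.

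The other groups held fewer hosts. Of 20 genes repressed by the fusion, 1 (5.0%) held a cluster (FN1, fibronectin, 11 peaks), and of 30 genes of actin, adhesion and matrix, 0 did. Of these 30, 25 had a promoter peak. Their median length was 81700 bp, and the host share of all genes from 50 to 100 kb was 3.05%, so a count of 0 among 30 is near the background. All 30 G2/M genes had a promoter peak, and 2 of them (6.67%) were hosts. These were CENPF, a kinetochore protein gene with 8 peaks, and TOP2A, which encodes topoisomerase II alpha, with 9. Of 29 matched genes that the study lists as lower after MYBL2 knockdown, 1 (3.45%) was a host (NCKAP1, of the actin-regulating WAVE complex, 29 peaks). Of 31 matched genes listed as higher, 0 were. Counts of 0 to 2 in groups of 20 to 31 genes are too small to be set apart from the 1.89% of all genes. Expression was not measured in the files used here, and the level of transcription of the hosts was not examined.

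The density of peaks around gene starts and ends was taken from all deposited peaks, near-TSS peaks included, in 5-kb bins. Bins outside the gene were used only where clear of other genes, and bins inside it were used for every gene. For the 245 hosts of at least 50 kb it was 4.42 peaks per 10 kb in the first 5 kb of the gene. Upstream it was 1.45 in the nearest 5 kb and 0.403 in the next. Within the first 50 kb of the gene it was between 3.52 and 4.65. Over the last 50 kb it was between 2.69, at 15 to 10 kb before the gene end, and 3.49, with 3.17 in the last 5 kb. The high density inside follows from how hosts were chosen, but the flanks were not used to choose them except where a cluster crossed an edge. In the first 5 kb past the gene end it was still 3.17, then 0.741, 0.418 and 0.117 in the next bins. In 4310 other genes of that length with a promoter peak it was 1.95 in the first 5 kb, 0.461 in the next 5 kb, 0.484 in the last 5 kb of the gene and 0.319 just past the end. In 2223 genes with no promoter peak it did not exceed 0.173 in any bin.

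**Figure D4:**
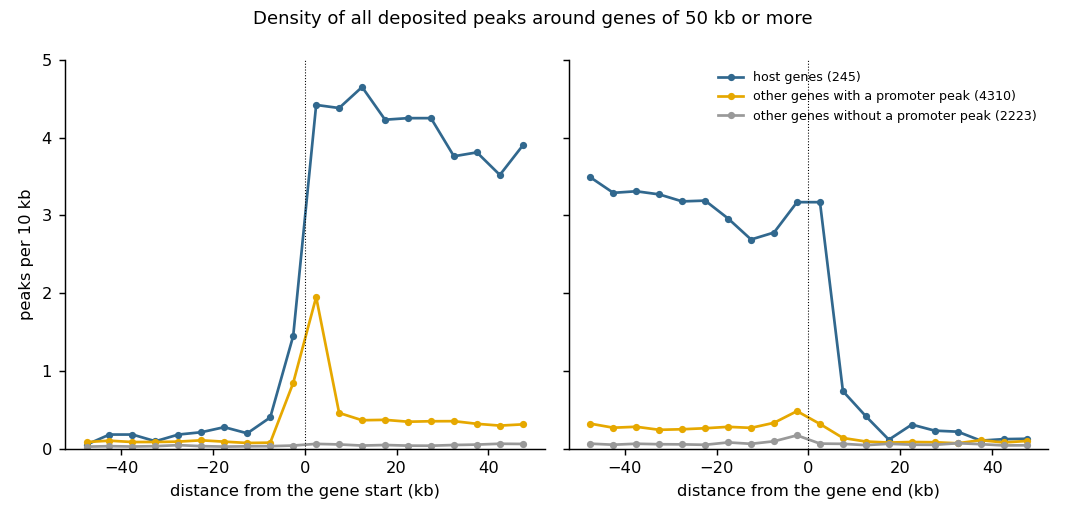
Density of all deposited peaks (y axis, peaks per 10 kb) in 5-kb bins around gene starts (left) and gene ends (right; x axes, kb along the direction of transcription) for hosts, other genes with a promoter peak and genes without one, all of at least 50 kb. In hosts the density is 4.42 just inside the start and 3.17 in the first 5 kb beyond the end, then 0.741 in the next bin.

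Clustered summits were spread along the host gene with more in its first part. Of 8797 summits inside their host, 59.3% lay nearer to its start than to its end. With each gene divided into 10 equal parts, the share was highest in part 2 (13.5%) and lowest in part 10 (5.81%). Part 1, some of which the TSS rule removes, held 9.72%. Most summits lay nearer to the start in 216 hosts and nearer to the end in 152, and they were evenly divided in 11.

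Where clusters crossed the edge of a protein-coding gene, they nearly always ran past its 3′ end. Of 137 such clusters, 133 extended only past the 3′ end, 2 only past the 5′ end and 2 past both. Whether the stretch beyond lay in another gene was not counted. The longest reach, 17222 bp at LCP1, was of a cluster placed in a lncRNA gene, as was one of 8368 bp at ZSWIM4. The median stretch beyond the 3′ end was 4105 bp, and in 46 it was at least 5 kb. The rule itself hampers crossing at a gene start, since the TSS zone is as wide as the longest gap allowed. With all deposited peaks joined, 311 clusters crossed only a 5′ end, 214 only a 3′ end and 387 both, of 1238. The cluster at GLG1, a Golgi protein gene, reached 16942 bp past the gene end with 22 peaks, that at TIPARP 16627 bp with 21, and that at SPIN1, a reader of histone methylation, 12452 bp with 62. Shorter reaches came at YTHDF2, a reader of N6-methyladenosine in RNA (8120 bp, 38 peaks), and UHRF1, a factor of DNA methylation upkeep (4186 bp, 41 peaks).

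Of the 9 clusters that touched no gene, 3 had the 3′ end of a host as their nearest coding gene edge. They lay 21 bp past CSE1L, 214 bp past PAPOLA and 8903 bp past AP1S3. The nearest coding gene edge of the other 6 was from 3133 to 169791 bp away. The largest fold enrichment of a peak in the 9 clusters ranged from 4.94 to 9.14.

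Clustered peaks were wide and of moderate height. Their median fold enrichment was 3.53, against 3.59 for single distal peaks and 4.24 for peaks near a TSS. The upper end differed more. A fold enrichment of at least 5 was reached by 8.55% of clustered peaks and 15.8% of single ones, and one of at least 10 by 26 clustered peaks (0.258%) and 173 of 11575 single ones. In 264 clusters (45.0%) no peak reached 5, and in 23 at least 1 peak reached 10. Median width was 321 bp in clusters and 261 bp in single peaks, and the median pileup was 20 and 18 fragments. A pileup of 20 has a Poisson interval of 12.2 to 30.9, so peaks of about this height within a cluster cannot be ranked at this depth. These values come from the same contrast as the rule and are a description.

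The input background was a little higher under the clusters. Its median, recovered from the deposited fold enrichment and p-value, was 4.66 fragments per clustered summit and 4.28 per single distal summit. The lowest value the peak caller used, 3.45, stood behind 9.31% of clustered and 16.7% of single summits. Chromosome 1 had 100 of the 587 clusters (17.0%) with 13.7% of the distal peaks, and 40.1% of its distal peaks were clustered, at a median background of 5.60. Over the 23 chromosomes the clustered share of distal peaks ranged from 5.56 to 40.1% and the median background at clustered summits from 3.57 to 5.66. Whether the 2 go together was not tested. The X chromosome had 3 clusters (0.199 per 10 Mb, against 4.44 on chromosome 1). Copy number in A673 was not measured here, and its part in these counts was not tested.

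Sequence was not used by the rule. Motifs were sought on both strands within 50 bp of the summit, and in windows of the same length centred 500 bp to either side. The peaks of a cluster share their locus, and the intervals take summits as separate. The ETS core was in 3 of 10060 clustered summits (0.0298%, 0.00615 to 0.0871%), against 0.320% of single distal summits, 0.140% in runs of 2 or 3 and 0.0988% in runs of 4 to 7. Its share in the windows beside clustered summits was 0.0398%, and 0.0462% of all 101-bp tiles of the clusters held it. The share at clustered summits was thus no higher than that of the surrounding sequence.

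The E-box, AP-1 and TEAD sites were also less frequent at clustered than at single summits. The E-box CAGCTG was in 7.57% of single summits (3.84% beside them), 6.70% in runs of 2 or 3, 5.20% in runs of 4 to 7 and 3.95% of clustered summits (3.39% beside them). The AP-1 site TGANTCA, bound by FOS and JUN, went from 5.09% to 3.49% (3.20% and 2.94% beside them). For the TEAD site GGAATG the shares were 6.72% and 5.60% (5.31% and 4.85% beside them). The E2F site (TTCGCGC or TTGGCGC) was in 0.328% of single and 0.109% of clustered summits. A run of 4 consecutive GGAA units did not go one way with run size: it was in 4 single summits (0.0346%), 15 in runs of 2 or 3 (0.162%), 3 in runs of 4 to 7 (0.0494%) and 1 clustered summit (0.00994%). In each class the share was lower than in the windows beside the summits, 0.121% for single and 0.0895% for clustered peaks.

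The motifs linked to MYBL2 showed little contrast. MYB sites (CAACNG or TAACNG) were in 21.8% of clustered summits (21.0 to 22.6%), 20.6% of the windows beside them and 20.4% of cluster tiles, and in 22.1% of single summits with 19.4% beside them. CHR elements (TTTGAA or TTCGAA) were in 12.7% of clustered summits (12.1 to 13.4%), 11.2% of the windows beside them and 11.5% of tiles, and in 11.3% of single summits with 11.2% beside them. The CCAAT box was in 14.2%, with 13.2% beside the summits. Clustered summits were also poorer in G and C, with a median of 38.6% against 41.1% in the windows beside them, whereas single summits had 41.6% in both. Base composition changes how often each short motif occurs by chance. Its part in the shares of any motif given here, the ETS core, E-box and E2F site included, was not tested. Single peaks also reached a fold enrichment of at least 5 more often than clustered ones (15.8% against 8.55%). The part of peak height in the motif shares was not tested either.

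**Figure D5:**
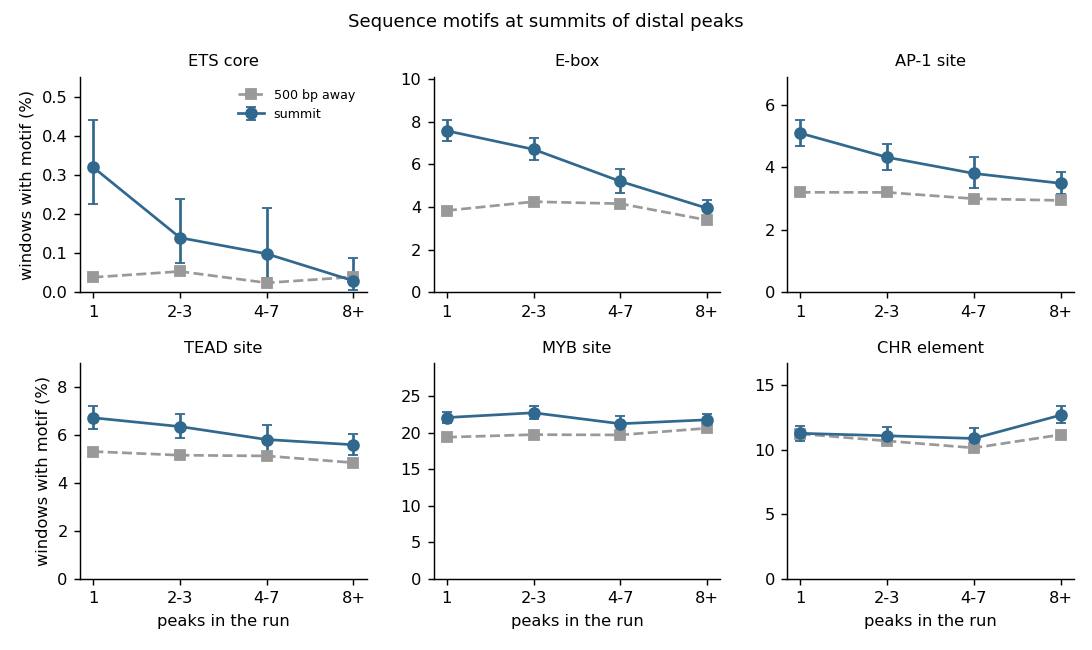
Share of 101-bp windows with a motif (y axes, percent) at summits (circles, with exact 95% binomial intervals) and 500 bp away (squares, both sides together) against the number of peaks in the run of distal peaks (x axes), for 6 motifs. The ETS core, E-box and AP-1 site shares go down with run size, to 0.0298%, 3.95% and 3.49% in clusters, while the MYB site stays between 21.2% and 22.7%.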

How the data were processed

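Before deposit, the authors mapped reads to hg19 (Bowtie2) and ran MACS2 in its narrow mode with the input library as control; the submitters' processing notes name versions 2.1.10 and 2.0.10. The deposited peak file gives each peak's start, end and summit, the fold enrichment (a ratio), −log10 p, −log10 q and a score derived from q. What its cleaning step removed is not given in the sources used here. Pileups and the local background were recovered from the deposited fold enrichment and −log10 p. The lowest background, 3.45 fragments, corresponds to about 56800000 ChIP reads if fragments were as long as the narrowest peak, 164 bp, and the peak caller's default human genome size was used.

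Members and gene lists were chosen with earlier results of these data known. TSSs, genes and exons came from GENCODE release 44 on GRCh37 (20098 protein-coding and 18592 lncRNA genes, chromosomes 1 to 22 and X); 0 peaks ran past a chromosome end. Clusters to name were the 10 with most peaks, the 5 longest, the 5 with the largest fold enrichment and the 5 densest; genes to name were their hosts, genes with 2 or more clusters and listed genes with a cluster. Other genes in the text (those at gene edges, in no gene, lncRNAs and the hosts without a promoter peak) were chosen after their values were seen. For motifs, consecutive 101-bp tiles of the clusters replaced the random places first planned. Intervals are exact (Clopper-Pearson, or Poisson for pileups) at 95%. Stitching, distances and recovery were tested on simulated data. Python 3.11.15, pandas 2.3.3, scipy 1.17.1 and pysam 0.24.0 were used. One cluster named by these rules and 2 summit sequences are not reported here.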

Additional observations from a re-analysis of the deposited data

How the results depend on the processing

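No paired analysis was possible because there was 1 ChIP and 1 input library and no result came from a test; for the same reason no replicate could be left out. The number of clusters, 587, stayed within 1.5 times under other TSS distances and gaps, but was 160 with peaks of −log10 q of at least 5 only, 8 with fold enrichment of at least 5 only, and 1238 with peaks near a TSS joined too. That last setting and leaving out chromosome 1 were chosen after seeing the data. The share in protein-coding gene bodies, 89.1%, was 93.4% with lncRNA bodies counted and 85.0% with peaks near a TSS joined. Median length, 17020 bp, was 11990 bp with gaps up to 2500 bp, 32680 bp with the longest gaps tried and 20270 bp under the q limit. Median fold enrichment, 3.53, was 3.51 with the longest gaps, 4.27 under the q limit, which removes weak peaks by construction, and 3.59 without chromosome 1. The share of clusters in gene bodies whose host had a promoter peak, 99.6%, was 98.6% with the longest gaps and 100.0% under the q limit. Under the q limit 14.1% of clustered summits had the CHR element and 13.4% the CCAAT box. In the wider window, 100 bp either side of the summit, shares rose by construction, to 39.6% for the MYB site, 27.1% for the CCAAT box, 23.8% for the CHR element, 6.75% for the AP-1 site, 0.249% for the E2F site, 10.9% for the TEAD site and 7.85% for the E-box. The cause of the other shifts was not tested. Pileups of about 20 fragments limit what can be said of any single peak.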
